A study of Mus musculus with 6 samples.

Results

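The 36 genes described here serve the endoplasmic reticulum, the compartment in which a secretory cell folds its proteins, and the response to stress in it. They are the stress sensors and their transcription factors, the chaperones and folding enzymes, the machinery that removes misfolded proteins, 4 genes downstream of the factor ATF4, and a pair of genes of the reticulum membrane. They were chosen by symbol, as genes known for these roles, and each was read on the brightest probe set that the platform annotation assigns to that symbol alone. All 36 were found among the 18193 genes that have such a probe set, and all passed the brightness filter used for testing. They had 82 of the 45037 probe sets that are not controls, and 11 of the genes had 1 probe set.

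RNA came from islets of Langerhans, the clusters of hormone cells scattered through the pancreas, of wild-type OF-1 male mice at postnatal day 30, and was hybridised on 6 Affymetrix arrays. Bisphenol-A, a building block of plastics that can act like an estrogen, was given to the dams on gestation days 9 to 16 at 10 µg/kg/day (BPA10) or 100 µg/kg/day (BPA100), and the dams of the third group were given vehicle, with 2 arrays per group. The series design names the pregnant mice as treated, while the treatment protocol in the labels names the offspring, and the dams are taken here as dosed. The route and the kind of vehicle are not given. Strain, sex, genotype and age were shared by the 3 groups, and the title of the series asks about beta-cell growth in the offspring. For replicates 1 and 2, RNA of 5 mice and 1 mouse was used in vehicle, of 1 mouse and 2 mice in BPA10, and of 1 mouse each in BPA100. Litters are not given in the labels, so the p-values measure only the spread between these arrays. Signals are the deposited intensities in arbitrary units, every array being scaled to a trimmed mean of 150, and array medians lay between 33 and 40. Differences are between group means of log2(signal + 1), which makes changes of dim probe sets look smaller than they are. They are given ± the moderated standard error (SE) of limma, whose p-values were adjusted by Benjamini-Hochberg over all 27022 probe sets tested.

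Unfolded protein in the reticulum is sensed by 3 membrane proteins. IRE1, encoded by Ern1, splices the messenger of the factor XBP1, PERK (Eif2ak3) slows translation while favouring that of ATF4, and ATF6 is cut to release a transcription factor. Beta cells make proinsulin and pancreatic acinar cells make digestive enzymes in bulk, and both keep these genes at a high level without acute stress. Much of the response lies in splicing, phosphorylation and cleavage, which these arrays do not read.

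The promoters of these genes are shown because they hold the sites through which the response is known to act. RefSeq sequence of assembly GRCm38.p6, from 250 bases before to 50 bases after a gene's start, was listed for 32 of the 36 genes, with Atf6, Derl1, Hyou1 and Manf not listed. Both strands were searched. The ER stress response element, CCAAT and CCACG held apart by any 9 bases, is bound by NF-Y together with ATF6 or XBP1. It was found in 10 of the 32 promoters (31.2%), against 39 of all 32851 promoters (0.119%), the 32 included. The list was counted by gene and the whole set by promoter entry. Genes and motifs, here and below, were chosen as known parts of this response. An excess was thus favoured from the start and is no result of these data. The 10 were Calr, Canx, Creld2, Derl3, Dnajc3, Ero1b, Hsp90b1, Hspa5, Pdia6 and Syvn1. Capitals mark the element, from CCAAT to CCACG or its reverse complement, and each sequence runs 5′ to 3′ along the gene's own strand.
Hspa5, chr2:34772005-34772063, plus strand: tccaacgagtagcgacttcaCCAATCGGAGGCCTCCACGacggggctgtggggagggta
Canx, chr11:50325780-50325838, minus strand: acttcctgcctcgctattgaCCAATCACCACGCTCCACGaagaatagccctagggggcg
Creld2, chr15:88819500-88819558, plus strand: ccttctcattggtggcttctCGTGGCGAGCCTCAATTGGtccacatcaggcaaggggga
Derl3, chr10:75893222-75893280, plus strand: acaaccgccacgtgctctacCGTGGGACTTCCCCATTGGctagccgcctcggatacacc
Ero1b, chr13:12565662-12565720, plus strand: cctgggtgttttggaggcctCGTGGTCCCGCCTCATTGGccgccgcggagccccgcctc
Syvn1, chr19:6046512-6046570, plus strand: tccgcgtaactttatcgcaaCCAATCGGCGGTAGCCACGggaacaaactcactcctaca
Hsp90b1 held 2 elements facing opposite ways, both in capitals.
Hsp90b1, chr10:86705513-86705676, minus strand: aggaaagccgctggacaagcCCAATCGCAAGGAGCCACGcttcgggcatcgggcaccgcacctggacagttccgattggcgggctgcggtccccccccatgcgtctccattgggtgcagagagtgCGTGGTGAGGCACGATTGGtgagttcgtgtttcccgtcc

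The core that ATF4 binds with a C/EBP partner, TGATGNAA, was found in 4 of the 32 promoters (12.5%), against 1304 of all promoters (3.97%). These were Asns, Chac1, Herpud1 and Trib3. The second form of the stress element, ATTGG and CCACG held apart by 1 base, was found in Dnajb11 and Herpud1 (6.25%, against 0.0365% of all promoters). The XBP1 core TGACGTGG was found in none of the 32, against 0.676% of all promoters. Capitals mark the ATF4 core on either strand and, downstream of it in Herpud1, the second form of the stress element.
Asns, chr6:7693210-7693252, minus strand: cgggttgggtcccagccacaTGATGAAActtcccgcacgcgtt
Chac1, chr2:119351029-119351076, plus strand: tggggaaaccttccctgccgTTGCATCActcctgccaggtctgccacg
Herpud1, chr8:94386297-94386407, plus strand: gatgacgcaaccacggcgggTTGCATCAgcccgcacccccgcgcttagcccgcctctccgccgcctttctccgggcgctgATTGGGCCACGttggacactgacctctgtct
A match describes these letters and shows no binding in islets.

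In BPA10 islets most of these genes had a higher mean than in vehicle islets, by small amounts. The mean was higher for 29 of 36 genes (80.6%), against 50.1% of all probe sets tested, and the median difference was 0.22 (range -0.35 to 1.17), against 0.00 over all probe sets. Both BPA10 arrays lay above both vehicle arrays for 20 genes (55.6% of the 36, 17.5% of all probe sets) and below them for Atf4 and Ddit3 (18.6%). In BPA100 islets 27 of 36 means were higher (49.1% of all) with a median of 0.08 (range -0.34 to 0.31). There, both arrays lay above both vehicle arrays for Canx, Derl1, Ern1, Hsp90b1, Hspa5 and Xbp1 (16.7% of the 36, 16.1% of all). Both lay below for Atf4 and Ddit3 (5.56% of the 36, 15.8% of all). The share above was near the background and is no result about the list.

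No gene of the 36 passed the adjusted threshold of 0.05 in limma, as no probe set at all did (0.0% in each of the comparisons). At an unadjusted limma p under 0.05, Derl3, Sel1l and Xbp1 were higher in BPA10 islets (3.12% of all probe sets) and none of the 36 was lower (3.96%). In BPA100 islets Ern1 was higher (2.11%) and Atf4 lower (1.87%). Leaving out each array in turn gave 1 to 8 such genes in BPA10 and 0 to 8 in BPA100, with 8 in BPA100 without its replicate 2. Across the 3 groups the F test gave an unadjusted p under 0.05 for Derl3 and Xbp1, which is 5.56% of the 36 against 5.23% of all probe sets. The F test's share lay near the background and is no result about the list.

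The excess of higher means was smaller under quantile normalization and not under median centring. Bright probe sets as a class lay slightly above vehicle: of 2111 with a mean log2 signal of at least 10, a limit set with the data in view, 1310 were higher in BPA10 (median 0.05) and 1267 in BPA100 (median 0.04). The 26 genes of the list above that limit had medians of 0.22 and 0.13. Under quantile normalization the median over the 36 genes was 0.08 in BPA10, with 22 higher, and 0.04 in BPA100, with 22 higher. With each array centred on its median these were 0.24, with 30 higher, and 0.12, with 28 higher.

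**Figure D1:**
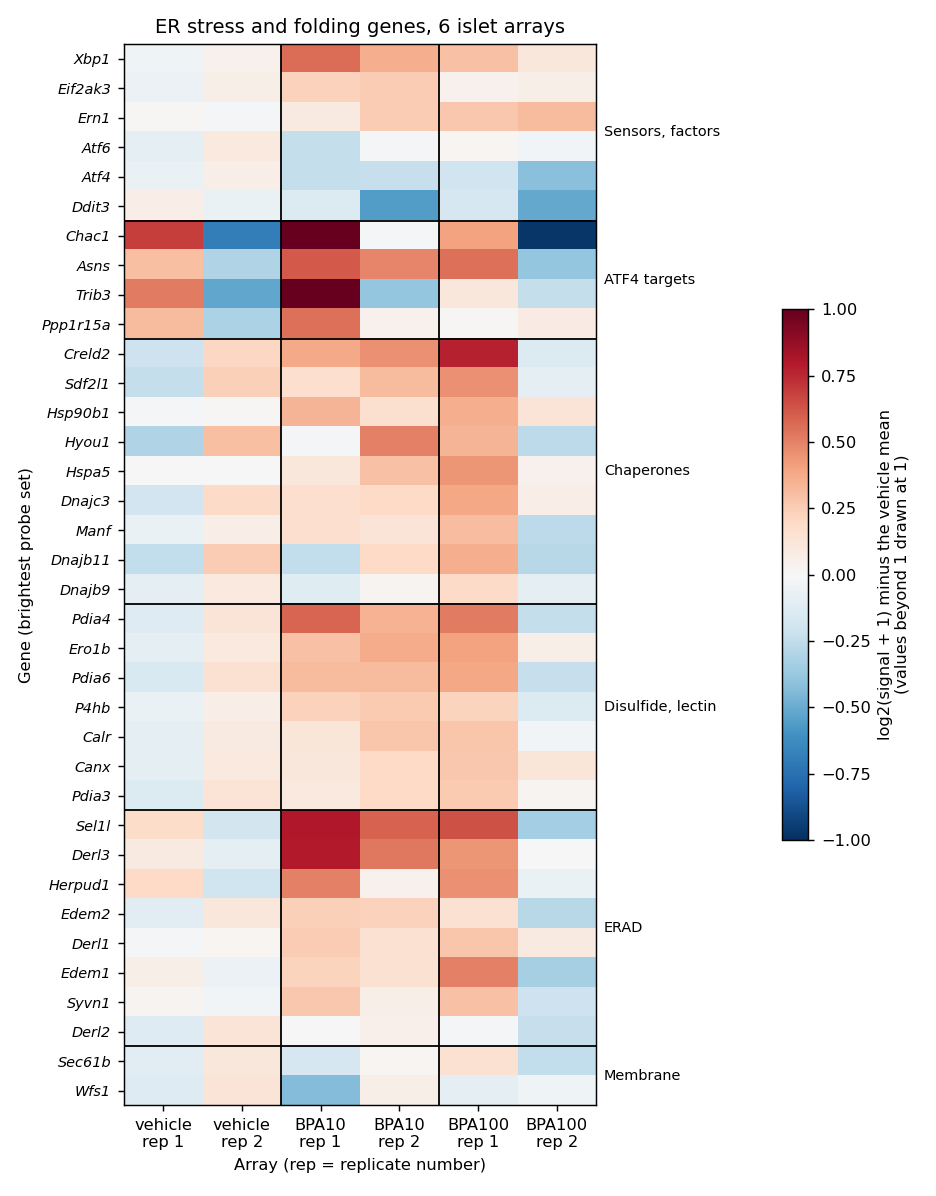
The log2(signal + 1) of each of the 36 genes minus the mean of the vehicle arrays, by array, with genes grouped by role and values beyond 1 drawn at 1. Red is above and blue below vehicle, and BPA100 replicate 1 is mostly red where BPA100 replicate 2 is mostly blue.

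The BPA100 arrays stood apart from each other. The median over the 36 genes, relative to the vehicle mean, was -0.07 and 0.07 on the vehicle arrays, 0.22 and 0.20 on the BPA10 arrays, and 0.29 and -0.12 on BPA100 replicates 1 and 2. BPA100 replicate 1 held the highest signal of the 6 arrays for 16 of the 36 genes (13.6% of all probe sets) and the lowest for none (14.2%). BPA100 replicate 2 held the lowest signal for 14 genes (16.1%) and the highest for 1 (16.8%). Within BPA100, replicate 1 exceeded replicate 2 for 32 of 36 genes (48.1% of all probe sets), with a median gap of 0.36. The widest gap inside a group was larger than the widest gap between group means for 28 of 36 genes, a share near that of all probe sets (73.9%). Without BPA100 replicate 1 the BPA100 median became -0.12 with 12 genes higher, and without BPA100 replicate 2 it became 0.29 with 32 higher.

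Markers of acinar cells, the enzyme-secreting cells that surround islets, were also high on some of the arrays where these genes were high. Of 30 such markers 25 were tested. Their summed signal was 151595 and 79514 on the vehicle arrays, 212606 and 191612 on the BPA10 arrays, and 197118 and 109977 on the BPA100 arrays. Both BPA10 arrays and BPA100 replicate 1 were thus the 3 highest for acinar signal and for the median of the 36 genes. The order of the other arrays differed: acinar signal was lowest on vehicle replicate 2, whose median over the 36 genes was 0.07, and the vehicle arrays stood in opposite order for the acinar median (0.58 and -0.58) and that of the 36 genes (-0.07 and 0.07). All 25 acinar markers had a higher mean in BPA10 (median 0.99) and 24 in BPA100 (median 0.47), against 50.1% and 49.1% of all probe sets. In BPA10 20 were higher at an unadjusted limma p under 0.05 (3.12% of all), and none passed the adjusted threshold at either dose. The acinar markers were not examined under quantile normalization. None of them was at 0 on any array. Rbpjl, an acinar transcription factor, had signals of 19 and 12 in vehicle, 95 and 81 in BPA10, and 38 and 17 in BPA100. It was dim in vehicle and on BPA100 replicate 2, and its BPA10 signals helped it pass the filter on mean brightness. For Rbpjl a higher mean in BPA10 was thus favoured by the filter. Beta-cell markers, of which 8 of 10 were tested, had summed signals of 33530 and 35071 in vehicle, 40831 and 41933 in BPA10, and 41680 and 36955 in BPA100. These sums too were highest on both BPA10 arrays and BPA100 replicate 1. All 8 had a higher mean in BPA10 (median 0.26) and 6 in BPA100 (median 0.16), against 50.1% and 49.1% of all probe sets. In BPA10 3 were higher at an unadjusted limma p under 0.05 (3.12% of all), and none passed the adjusted threshold at either dose. The part of acinar or beta-cell RNA in the results on the 36 genes was not tested. In such bulk RNA fewer cells of a type and less RNA per cell cannot be told apart.

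Ins2, the insulin gene that could be matched alone, is a main client of the beta cell's reticulum. Its signal was 3546 and 3552 in vehicle, 4873 and 4797 in BPA10, and 4139 and 2680 in BPA100. BPA100 replicate 2, the lowest array for 14 of the 36 genes, was also the lowest for Ins2. Beta-cell markers did not share this as a list. Pdx1 was lowest there too (956), but Ucn3 was highest there (2709). The summed beta-cell signal on that array, 36955, was above both vehicle sums.

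**Figure D2:**
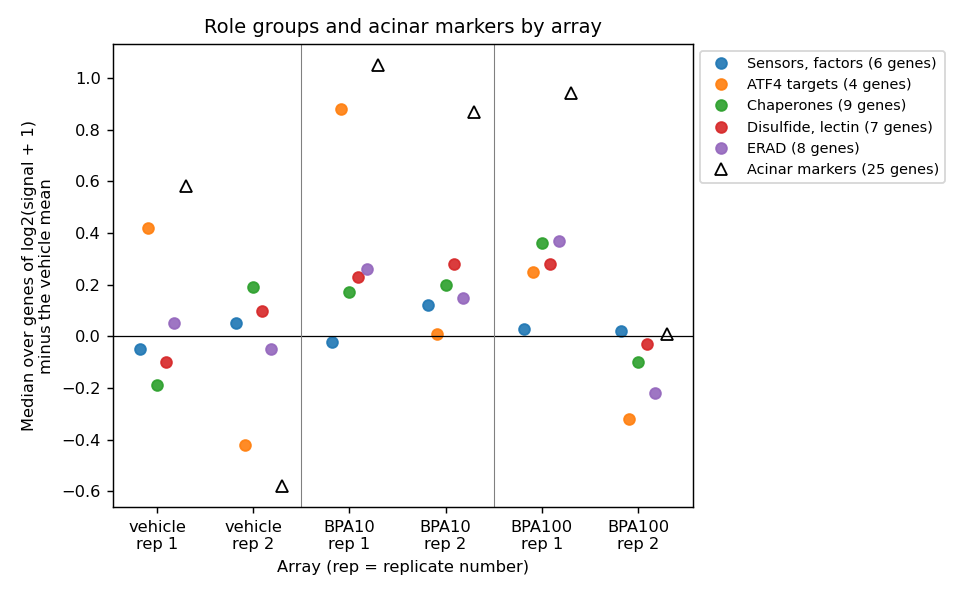
Median over the genes of each role of log2(signal + 1) minus the vehicle mean, by array, with the 25 acinar markers as triangles; the pair of membrane genes is left out. Chaperones and degradation genes stood at 0.36 and 0.37 on BPA100 replicate 1 and at -0.10 and -0.22 on replicate 2. The median of the 6 sensors and factors, whose genes went in opposite directions, stayed between -0.05 and 0.12 on all arrays.

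Among the sensors and their factors, Xbp1 and Ern1 were higher and Atf4 and Ddit3 lower than in vehicle. The median of the 6 was 0.02 in each of BPA10 and BPA100, with 3 higher and 3 lower in each. Xbp1 encodes the factor that drives chaperone, degradation and secretory genes (Entrez gene 22433). Its signal was 5479 and 5760 in vehicle, 8304 and 7192 in BPA10, and 6883 and 6064 in BPA100. Every treated array lay above both vehicle arrays and both BPA10 arrays above both BPA100 arrays.

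The BPA10 difference of Xbp1 was 0.46 ± 0.13 (95% interval 0.17 to 0.75, limma unadjusted p = 0.00674, adjusted p = 0.586), and the BPA100 difference was 0.20 ± 0.13 (-0.09 to 0.50, adjusted p = 1). Its other 3 probe sets, which read the same RNA, gave 0.40 to 0.57 in BPA10 and 0.04 to 0.26 in BPA100. Under quantile normalization the BPA10 difference was 0.21. The annotation does not say whether a probe set separates the spliced from the unspliced messenger.

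Ern1, which encodes the kinase and ribonuclease that splices Xbp1, had signals of 756 and 746 in vehicle, 799 and 892 in BPA10, and 904 and 939 in BPA100 (Entrez gene 78943). Its means stood in the order of dose, and BPA100 lay above both other groups without overlap. The BPA100 difference was 0.29 ± 0.12 (95% interval 0.01 to 0.58, limma unadjusted p = 0.0442, adjusted p = 1). Its other tested probe sets were dim, with BPA100 differences of -0.12 and 0.31.

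Atf4, whose product drives amino acid supply and, with CHOP, late stress genes, had signals of 1727 and 1907 in vehicle, 1538 and 1549 in BPA10, and 1583 and 1352 in BPA100 (Entrez gene 11911). All treated arrays lay below both vehicle arrays. The difference was -0.23 ± 0.13 in BPA10 (limma adjusted p = 0.771) and -0.31 ± 0.13 in BPA100 (95% interval -0.61 to -0.01, unadjusted p = 0.0418, adjusted p = 1). The other probe set that passed the filter gave -0.22 and -0.19, and another was below it.

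Ddit3, which encodes the stress factor CHOP, lay in the same direction, with signals of 277 and 251 in vehicle, 240 and 179 in BPA10, and 234 and 185 in BPA100. Every treated array was below both vehicle arrays, with the arrays of a treated group far apart. Eif2ak3, encoding the sensor PERK, had 613 and 662 in vehicle, 745 and 758 in BPA10, and 656 and 664 in BPA100, so that only BPA10 stood clear of vehicle. Atf6, encoding the membrane-bound factor, had 620 and 714 in vehicle, 562 and 659 in BPA10, and 676 and 653 in BPA100, where the groups overlapped.

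**Figure D3:**
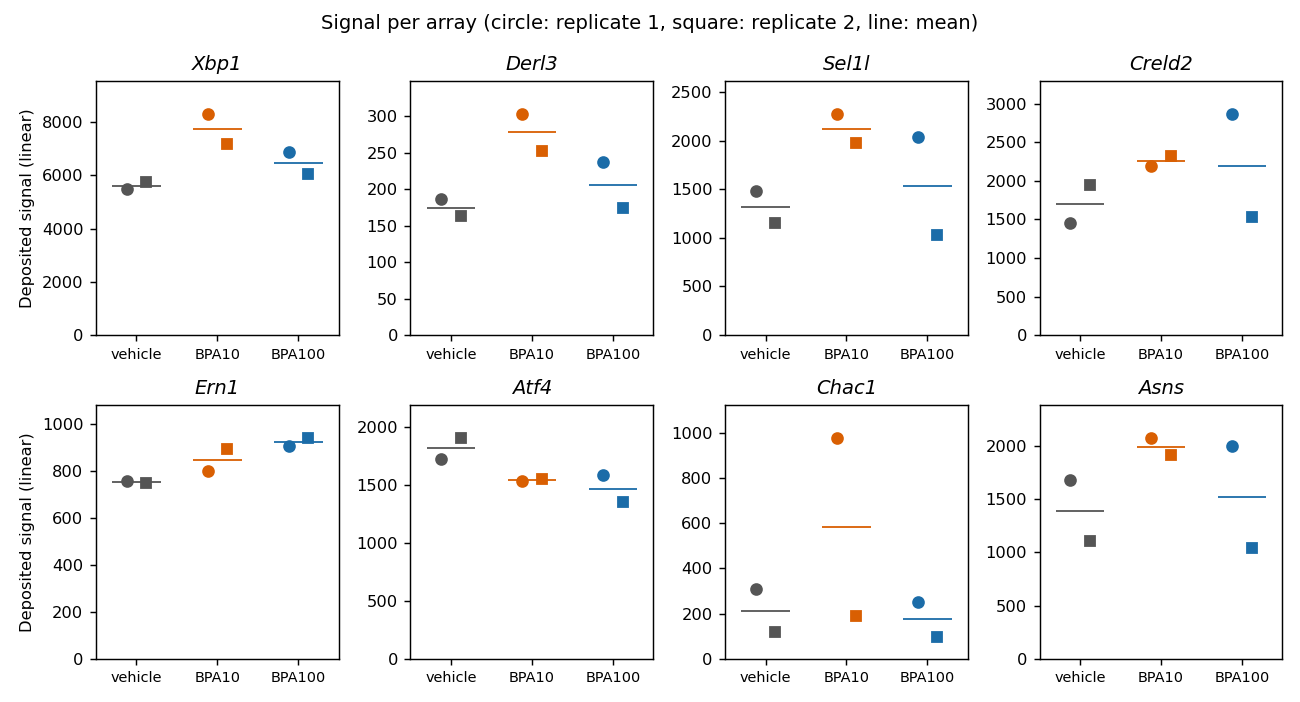
Deposited signal of 8 genes on each array, on linear axes from 0 that differ between panels, with a line at the mean of each group. Xbp1, Derl3 and Sel1l have both BPA10 arrays above both vehicle arrays, Atf4 has all treated arrays below both vehicle arrays, and Chac1 has 1 BPA10 array, at 978, above all others.

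Among the 4 genes downstream of PERK and ATF4, Chac1 and Trib3 varied widely between arrays of a group. Chac1 encodes an enzyme that breaks down glutathione and is among the most responsive ATF4 targets. Its signal was 308 and 118 in vehicle, 978 and 188 in BPA10, and 252 and 97 in BPA100. BPA10 replicate 1, of 1 mouse, stood far above the other 5 arrays, and replicate 1 was more than replicate 2 in every group, by a ratio of 2.61 in vehicle, 5.2 in BPA10 and 2.6 in BPA100. The BPA10 difference of Chac1, 1.17 ± 0.76, had a 95% interval of -0.58 to 2.91.

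Trib3, a pseudokinase that restrains ATF4 and AKT, followed the same pattern, with 154 and 74 in vehicle, 240 and 81 in BPA10, and 115 and 90 in BPA100. Asns, which makes asparagine, had 1679 and 1106 in vehicle, 2078 and 1913 in BPA10, and 2000 and 1041 in BPA100. Both BPA10 arrays of Asns lay above both vehicle arrays, by 0.55 ± 0.30 (95% interval -0.13 to 1.23, limma adjusted p = 0.761), while BPA100 spanned the vehicle range. Ppp1r15a, the phosphatase subunit GADD34 that restores translation, had 151 and 96 in vehicle, 177 and 124 in BPA10, and 121 and 127 in BPA100, and its groups overlapped.

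The median of these 4 genes was 0.47 higher in BPA10 and -0.01 in BPA100. Without BPA10 replicate 1 the BPA10 median was 0.01 and without vehicle replicate 2 it was 0.11, whereas it was 0.88 without vehicle replicate 1 and also without BPA10 replicate 2. The BPA100 median ran from -0.44 without vehicle replicate 2 to 0.39 without vehicle replicate 1. The 4 promoters with the ATF4 core, Asns, Chac1, Herpud1 and Trib3, belonged to genes that were higher on replicate 1 than on replicate 2 in all 3 groups, with median gaps of 0.82 in vehicle, 1.01 in BPA10 and 0.73 in BPA100. Over the 28 listed promoters without it those gaps were -0.18, -0.03 and 0.34. In all, 9 of the 36 genes were higher on replicate 1 in every group, against 18.3% of all probe sets; the labels do not say that equal numbers share anything.

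Chaperones of the Hsp70 and Hsp90 families and their helpers had mostly higher means at both doses, which turned on single arrays. Of 9 genes, 7 were higher in BPA10 (median 0.20) and 9 in BPA100 (median 0.18); under quantile normalization 4 were higher in BPA10 (median -0.03) and 7 in BPA100 (median 0.09). Without vehicle replicate 1, 5 were higher in BPA10 (median 0.01) and 4 in BPA100 (median -0.05), and without BPA100 replicate 1, 3 were higher in BPA100 (median -0.10). Hspa5 encodes BiP, the main chaperone of the compartment and the one whose release activates the sensors. Its signal was 6916 and 6957 in vehicle, 7472 and 8510 in BPA10, and 9419 and 7144 in BPA100. All treated arrays of Hspa5 lay above both vehicle arrays, and BPA100 spanned both BPA10 values. The differences were 0.20 ± 0.15 (95% interval -0.15 to 0.55) and 0.24 ± 0.15 (-0.11 to 0.59).

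Hsp90b1, encoding the chaperone GRP94, had 6062 and 6119 in vehicle, 7686 and 6809 in BPA10, and 7823 and 6680 in BPA100. Its 4 treated arrays lay above both vehicle arrays, with a difference of 0.25 ± 0.13 at each dose (95% interval -0.05 to 0.54). Creld2, a small folding factor induced by stress, had 1451 and 1953 in vehicle, 2191 and 2319 in BPA10, and 2865 and 1528 in BPA100. The BPA10 arrays of Creld2 lay above both vehicle arrays, by 0.42 ± 0.27 (95% interval -0.19 to 1.04, limma adjusted p = 0.801). In BPA100, replicate 1 was the highest of the 6 arrays and replicate 2 lay inside the vehicle range.

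Sdf2l1, a partner of the BiP cycle, had 2757 and 3838 in vehicle, 3664 and 4072 in BPA10, and 4464 and 3039 in BPA100. Hyou1, an Hsp70-like exchange factor for BiP, had 1360 and 2073 in vehicle, 1671 and 2370 in BPA10, and 2132 and 1403 in BPA100. In both, vehicle replicate 1 was the lowest array and the vehicle and BPA10 arrays overlapped. The other 2 probe sets of Hyou1 had the opposite sign in BPA10 (-0.19 and -0.18).

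The J-domain co-chaperones, which load clients onto BiP, overlapped between groups or differed little. Dnajb9 had 4634 and 5297 in vehicle, 4550 and 5049 in BPA10, and 5667 and 4631 in BPA100. Dnajb11 had 1001 and 1407 in vehicle, 1000 and 1364 in BPA10, and 1521 and 976 in BPA100. For both genes the vehicle arrays spanned, or nearly spanned, the BPA10 arrays, and BPA100 replicate 1 was the highest. Dnajc3, which also inhibits PERK, had 2953 and 3847 in vehicle, 3782 and 3873 in BPA10, and 4411 and 3549 in BPA100. Manf, a secreted protein that supports beta-cell survival, had 4769 and 5291 in vehicle, 5664 and 5499 in BPA10, and 6249 and 4188 in BPA100. For Dnajc3 and Manf too, BPA100 replicate 1 was the highest array.

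The 7 enzymes and lectins of disulfide and glycoprotein folding were higher at both doses, with medians of 0.24 in BPA10 and 0.14 in BPA100. Under quantile normalization 3 of 7 were higher in BPA10 (median 0.00) and 4 in BPA100 (median 0.03). Without BPA100 replicate 1, 3 of 7 were higher in BPA100 (median -0.03), and without vehicle replicate 1, 4 were (median 0.01). Pdia4, a disulfide isomerase, had 1188 and 1414 in vehicle, 1942 and 1651 in BPA10, and 1853 and 1098 in BPA100. The BPA10 arrays lay above both vehicle arrays, by 0.47 ± 0.23 (95% interval -0.06 to 0.99, limma adjusted p = 0.736). Its BPA100 arrays lay on either side of the vehicle range.

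Ero1b, the oxidase that recharges these isomerases and is abundant in beta cells, had 6426 and 7401 in vehicle, 8410 and 8910 in BPA10, and 9072 and 7190 in BPA100. P4hb, the founding isomerase PDI, had 6126 and 6705 in vehicle, 7521 and 7652 in BPA10, and 7459 and 5799 in BPA100. Pdia6 had 2883 and 3550 in vehicle, 3981 and 3998 in BPA10, and 4178 and 2736 in BPA100. In these 3 genes the BPA10 arrays were above vehicle and close to each other, while BPA100 replicate 2 was within or below the vehicle range.

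Calr and Canx encode the lectin chaperones calreticulin and calnexin, and Pdia3 the isomerase that works with them. Calr had 4453 and 5014 in vehicle, 5122 and 5730 in BPA10, and 5719 and 4614 in BPA100. Canx had 5219 and 5972 in vehicle, 6038 and 6400 in BPA10, and 6746 and 6056 in BPA100. Pdia3 had 5440 and 6642 in vehicle, 6427 and 6902 in BPA10, and 7178 and 6121 in BPA100. Of the 3, Canx had all treated arrays above both vehicle arrays. Some weaker probe sets had the opposite sign in BPA10: -0.08 and -0.07 for Canx, -0.13 for one of Ero1b, -0.25 for Pdia3 and -0.17 for Pdia6.

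The degradation machinery, which pulls misfolded proteins out of the compartment, had a higher mean in BPA10 for 8 of 8 genes, with a median of 0.22, or 0.20 with 8 of 8 under quantile normalization. In BPA100 6 of 8 were higher (median 0.12), and all 8 were lower in BPA100 than in BPA10 (median -0.13), or 7 of 8 under quantile normalization. The BPA100 arrays pulled these counts apart: without replicate 1, 2 of 8 were higher than vehicle (median -0.22), and without replicate 2, 7 of 8 were (median 0.37), with 4 of 8 above BPA10 (median 0.02). Derl3, a channel subunit of secretory tissues, had 186 and 164 in vehicle, 303 and 253 in BPA10, and 238 and 175 in BPA100 (Entrez gene 70377). Both BPA10 arrays lay above all others. The difference was 0.66 ± 0.20 in BPA10 (95% interval 0.21 to 1.12, limma unadjusted p = 0.00986, adjusted p = 0.61), 0.22 in BPA100 (-0.23 to 0.68), and -0.44 ± 0.20 for BPA100 minus BPA10 (-0.89 to 0.02, adjusted p = 0.964).

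Sel1l, the scaffold that couples recognition of misfolded proteins to the ligase HRD1, had 1485 and 1151 in vehicle, 2271 and 1972 in BPA10, and 2036 and 1031 in BPA100 (Entrez gene 20338). The BPA10 arrays lay above both vehicle arrays, and the BPA100 arrays lay on either side of vehicle. The BPA10 difference was 0.69 ± 0.28 (95% interval 0.05 to 1.34, limma unadjusted p = 0.0385, adjusted p = 0.686), and its other 4 probe sets gave 0.31 to 0.74.

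Syvn1, which encodes HRD1 itself, had 694 and 666 in vehicle, 819 and 707 in BPA10, and 832 and 587 in BPA100. Herpud1, an adaptor of that complex, had 1338 and 1012 in vehicle, 1643 and 1196 in BPA10, and 1599 and 1112 in BPA100. Edem1, a lectin that marks glycoproteins for removal, had 1168 and 1070 in vehicle, 1302 and 1243 in BPA10, and 1585 and 890 in BPA100. All 3 were higher on replicate 1 than on replicate 2 in each group.

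Edem2, which starts the trimming of those glycans, had 1008 and 1182 in vehicle, 1289 and 1278 in BPA10, and 1212 and 900 in BPA100. Derl1 and Derl2 are relatives of Derl3. Derl1 had 3296 and 3393 in vehicle, 3981 and 3705 in BPA10, and 4062 and 3552 in BPA100, with all treated arrays above both vehicle arrays. Derl2 had 1336 and 1596 in vehicle, 1460 and 1510 in BPA10, and 1448 and 1247 in BPA100, where vehicle spanned BPA10. The other 3 probe sets of Derl1 had the opposite sign in BPA100 (-0.16, -0.06 and -0.02).

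The pair of membrane genes had no higher mean at either dose. Sec61b, a subunit of the translocation channel, had 4044 and 4684 in vehicle, 3868 and 4404 in BPA10, and 4814 and 3670 in BPA100. Wfs1, whose loss causes diabetes in Wolfram syndrome, had 742 and 893 in vehicle, 604 and 848 in BPA10, and 767 and 792 in BPA100. Both overlapped between all groups.

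**Figure D4:**
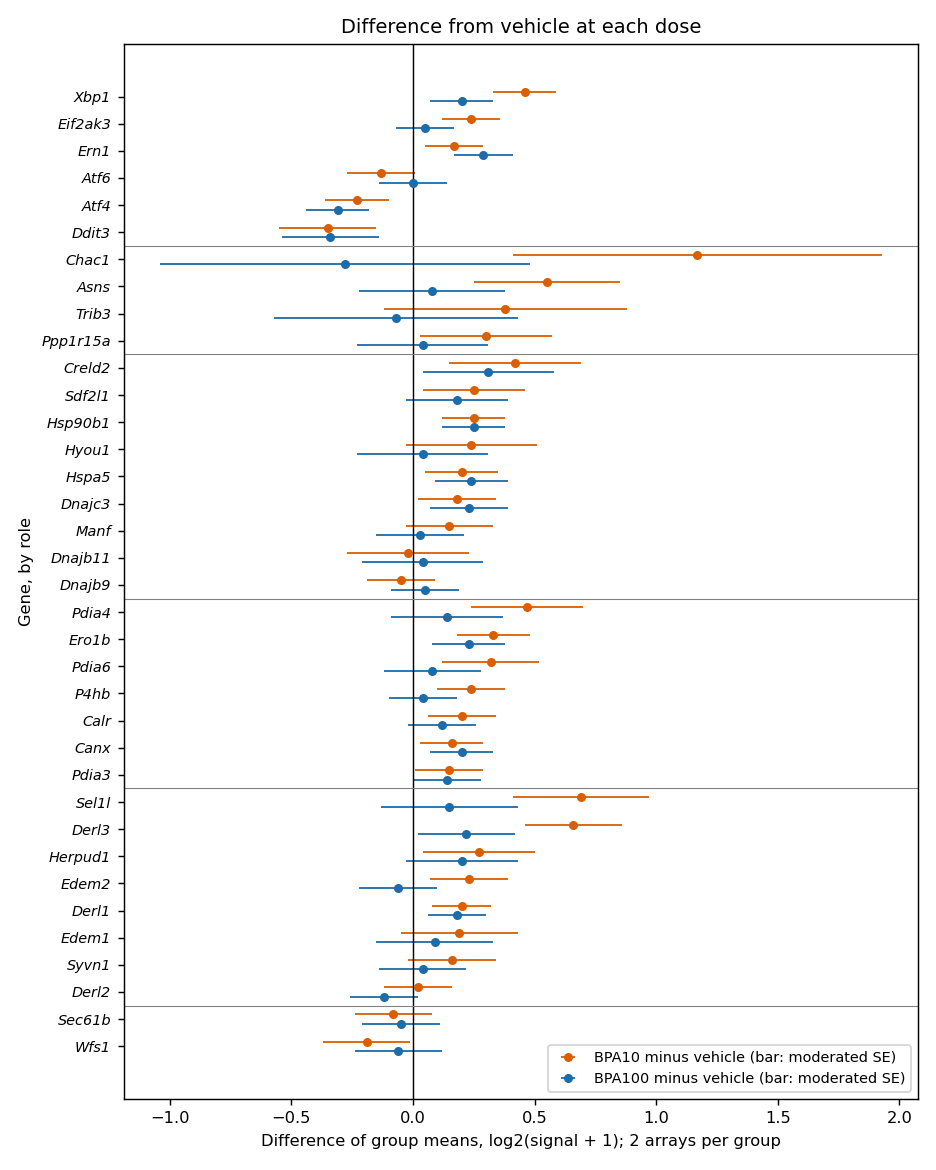
Difference of the group means of log2(signal + 1) from vehicle for each of the 36 genes, BPA10 in orange and BPA100 in blue, with bars of 1 moderated SE and 2 arrays per group. Xbp1, Derl3 and Sel1l lie farther from 0 in BPA10 than in BPA100, Atf4 and Ddit3 lie below 0 at both doses, and the bars of Chac1 are the widest.

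The direct comparison of the doses gave 10 of 36 genes higher in BPA100 than in BPA10 (50.5% of all probe sets), with a median of -0.10. None of the 36 had an unadjusted limma p under 0.05 in either direction (2.44% of all higher, 2.31% lower), but 11 had without BPA100 replicate 1. Both BPA100 arrays lay above both BPA10 arrays for Ern1 (2.78% of the 36, 15.7% of all). They lay below for Derl2, Derl3, Edem2, Eif2ak3, P4hb and Xbp1 (16.7% of the 36, 15.0% of all), a share near the background. Without BPA100 replicate 1, 3 genes were higher in BPA100, and without BPA100 replicate 2, 26 were.

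With both doses set against vehicle, 30 of 36 genes were higher (49.2% of all) and the median was 0.16. That median was 0.08 under quantile normalization (24 higher), without vehicle replicate 1 (25 higher) and without BPA100 replicate 1 (23 higher). All 4 treated arrays lay above both vehicle arrays for Canx, Derl1, Ern1, Hsp90b1, Hspa5 and Xbp1 (7.17% of all) and below for Atf4 and Ddit3 (7.33%). Derl3 and Xbp1 had an unadjusted limma p under 0.05 and were higher (2.7% of all), and Atf4 was lower (2.99%). Those 3 became 12 without BPA100 replicate 2 and 0 without vehicle replicate 1. The difference was 0.44 ± 0.17 for Derl3 (adjusted p = 0.835), 0.33 ± 0.11 for Xbp1 (adjusted p = 0.823) and -0.27 ± 0.11 for Atf4 (adjusted p = 0.858). The 3 comparisons with vehicle share the same 2 vehicle arrays.

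The 10 genes with the stress element in the listed promoter all had a higher mean at both doses (50.1% and 49.1% of all probe sets), with medians of 0.22 in BPA10 and 0.23 in BPA100. The 22 with a listed promoter and no such match had medians of 0.24 (16 higher) and 0.04 (14 higher). Most of the 10 belong to the chaperone role and the disulfide and lectin role. Under quantile normalization those 2 roles had medians of -0.03 and 0.00 in BPA10 and of 0.09 and 0.03 in BPA100. The genes with and without the element were not compared under quantile normalization or at matched brightness. Within BPA100, replicate 1 exceeded replicate 2 for all 10 (median 0.37) and for 18 of the 22 (median 0.36). On BPA100 replicate 2 alone, Calr, Creld2, Pdia6 and Syvn1 lay below the vehicle mean, by -0.03, -0.14, -0.23 and -0.21, and Derl3 was at 0.00.

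A longer list of other reticulum genes for folding, transport and quality control stood nearer to vehicle. Of 71 such genes 69 were tested, 39 were higher in BPA10 (median 0.07) and 35 in BPA100 (median 0.00), against 50.1% and 49.1% of all probe sets. At an unadjusted limma p under 0.05, 1 was higher (3.12% of all) and 0 lower (3.96%) in BPA10. In BPA100 1 was higher (2.11%) and 1 lower (1.87%), with none past the adjusted threshold at either dose. Tmx3, a membrane-bound disulfide isomerase, had signals of 523 and 535 in vehicle, 615 and 673 in BPA10, and 656 and 676 in BPA100. Every treated array of Tmx3 lay above both vehicle arrays. Mogs, first of this list by F-test p, had 575 and 575 in vehicle, 666 and 606 in BPA10, and 497 and 430 in BPA100. Both its BPA100 arrays were thus below vehicle. Ppib had 2038 and 2021 in vehicle, 2679 and 2287 in BPA10, and 2111 and 1247 in BPA100. At an unadjusted limma p under 0.05, 2 of the 69 were lower in BPA100 than in BPA10 (2.31% of all) and 0 higher (2.44%). On BPA100 replicates 1 and 2 the median of the 69 was 0.10 and -0.13.

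A list of genes tied to ATF4, those of amino acid supply among them, differed more between doses. Of 35 listed, 30 were tested, 23 were higher in BPA10 (median 0.21) and 11 in BPA100 (median -0.05), against 50.1% and 49.1% of all probe sets. At an unadjusted limma p under 0.05, 4 were higher in BPA10 (3.12% of all) and none in BPA100 (2.11%). By the same measure 7 were lower in BPA100 than in BPA10 (2.31%), and none passed the adjusted threshold. Relative to the vehicle mean, the list's median in vehicle was 0.14 for replicate 1 but -0.14 for replicate 2. In BPA10 it was 0.24 and then 0.16, and in BPA100 0.07 and then -0.28. Vehicle replicate 1 thus stood close to BPA10 replicate 2. BPA100 replicate 1 lay below both BPA10 arrays but inside the vehicle range. BPA100 replicate 2 stood lowest, and its weight in the gap between doses was not tested. Slc7a1, a transporter of cationic amino acids, had 698 and 584 in vehicle, 1027 and 951 in BPA10, and 868 and 650 in BPA100. Eif4ebp1, a brake on translation, had 288 and 192 in vehicle, 386 and 378 in BPA10, and 213 and 151 in BPA100. In both, the BPA10 arrays were above vehicle, whereas Atf4 itself was below it.

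Markers of other cells that an islet preparation can hold differed by array as well. Stellate cell and fibroblast markers (12 of 12 tested) had a summed signal of 13386 on BPA10 replicate 1 and of 5071 to 8078 on the other arrays. Duct markers (6 of 9 tested) ranged from 3634 on BPA100 replicate 2 to 5584 on BPA10 replicate 1. Macrophage markers (11 of 12 tested) ranged from 1409 on BPA100 replicate 1 to 2841 on vehicle replicate 1. Plasma and B cell markers, listed because plasma cells also rely on Xbp1, passed the filter for 5 of 12, and their sum was 507 on BPA10 replicate 1 against 246 to 319 elsewhere. That sum holds 110 of Ms4a1, a B cell marker at 14 to 20 on the other arrays. Ms4a1 passed the filter only through BPA10 replicate 1, so its share of the excess was fixed by the filter. Endothelial markers (8 of 8) lay between 3119 and 3385. Alpha and delta cell markers (6 of 8) summed to 35477 and 37766 in vehicle, 48135 and 44472 in BPA10, and 45497 and 38717 in BPA100. Of these markers 5 of 6 had a higher mean in BPA10 (50.1% of all probe sets) and 6 of 6 in BPA100 (49.1%). In BPA10 3 were higher at an unadjusted limma p under 0.05 (3.12% of all). Their sums too were highest on the BPA10 arrays and BPA100 replicate 1. The array that stood apart for Chac1 and Trib3, BPA10 replicate 1, thus also held the highest summed signal of several lists. These were the acinar, stellate, duct, plasma and B cell, and alpha and delta cell markers. Its duct sum was close to that of vehicle replicate 2 (5497), where Krt7 was higher (1455 against 1005). None of these lists had every marker highest on it. Prss3 was highest on BPA10 replicate 2 and Sst on BPA100 replicate 1. Des, which had the smallest F-test p of the stellate list, went the other way. Its signal was 75 and 59 in vehicle, 24 and 35 in BPA10, and 21 and 19 in BPA100. The part of these cells in the result was not tested.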

How the data were processed

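The authors deposited a linear intensity for every probe set on each array, made with MAS5 according to the submitters' processing notes with no version stated in the sources used here. Values are whole numbers with a trimmed mean of 150 on every array (2% left out at each end), so arrays were scaled to one target. A signal is thus relative to the rest of its array. Of 45101 probe sets 64 controls were left out, and the annotation named 1 gene for 34945, several for 932 and none for 9160. Values were taken as log2(signal + 1), and the 27022 probe sets with a mean at or above the 40th percentile (log2 4.6) were tested with limma 3.58.1 (lmFit, eBayes with trend) in R 4.3.3 on all 6 arrays, 3 group means, 3 residual and 5.4 prior degrees of freedom. The script was tested on simulated data. Precision is limited by the number of arrays, with a median SE of 0.24 between groups of 2 and of 0.21 for 4 arrays against 2. Detection calls were not used here.

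The genes, lists and promoter motifs were chosen with earlier results of these data known. A gene's difference and adjusted p are given where its unadjusted p was under 0.05, or where groups did not overlap and differed by at least 0.4, and all others by their signals. Chosen after their values were seen were the differences of Chac1, Hsp90b1 and Hspa5, of Xbp1 and Derl3 in BPA100 and of Atf4 in BPA10. For other lists at most the 3 with the smallest F-test p are named. Alternatives were quantile normalization, median centring, a pseudocount of 16, other filters, other fits, averaging the probe sets of a gene, the replicate number as a block, only arrays of 1 mouse, and leaving out each array. Promoter sequences are RefSeq's, of assembly GRCm38.p6, and protein sequences were not analysed here.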

Additional observations from a re-analysis of the deposited data

How the results depend on the processing

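No setting tried turned the direction of the differences from vehicle of Asns, Creld2, Derl3, Pdia4, Sel1l and Xbp1 in BPA10 or of Atf4 and Ern1 in BPA100. Sizes moved: Asns in BPA10 was 0.25 without vehicle replicate 2, Creld2 in BPA10 was 0.21 without vehicle replicate 1 and 0.17 on arrays of 1 mouse alone, and Ern1 in BPA100 was 0.16 with probe sets averaged. The counts of called probe sets, 0 in all comparisons, changed with the fit. Median centring called 1 probe set for both doses against vehicle and 6 for BPA100 against vehicle. Fitting only the groups compared called 1 for BPA10 and 4 for BPA100 against vehicle. Leaving out each array in turn called 0 to 5 over the 3 groups, 0 to 7 for both doses, 0 to 9 for BPA10 and 0 to 5 for BPA100 against vehicle, and 0 to 1 for BPA100 against BPA10. With the number as a replicate block, 2 were called over the 3 groups, 1 for both doses and 7 for BPA100 against vehicle, and genes of the 36 at an unadjusted p under 0.05 went from 3 to 6 in BPA10, from 3 to 7 for both doses and from 0 to 4 for BPA100 against BPA10. Deviations of same-numbered arrays correlated at 0.19, 0.20 and 0.08 over all probe sets (vehicle with BPA10, vehicle with BPA100, BPA10 with BPA100) and at 0.88, 0.31 and 0.41 over the 36 genes, and the labels do not say that numbers pair arrays. Chac1 (log2 gaps of 1.38 in vehicle and 2.37 in BPA10) and Trib3 (1.05 and 1.56) had the widest gaps in these groups. They weigh heavily in the 0.88, which was not computed without them.

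Leaving out each array moved the median over the 36 genes between -0.12 and 0.29 for BPA100 against vehicle, with 12 to 32 genes higher, and between -0.26 and 0.10 for BPA100 against BPA10, with 3 to 26 higher. With only arrays of 1 mouse the medians were 0.15 in BPA10 and 0.04 in BPA100, and with the mean of each gene's probe sets 0.16 and 0.05. Other probe sets had the same sign as the brightest for 29 of 38 in BPA10 and 30 of 38 in BPA100. Groups of 2 arrays limit every comparison.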
